A study of Rattus norvegicus with 12 samples.

Results

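Egr1, Fos, Jun and Myc are the best known immediate early genes, and they were followed here in cardiac fibroblasts grown on a soft gel or on rigid plastic. They were taken by gene identifier from the deposited count table: Egr1 is ENSRNOG00000019422, Fos is ENSRNOG00000008015, Jun is ENSRNOG00000026293 and Myc is ENSRNOG00000004500. They are 4 of the 32623 genes in the table, and all 4 were among the 14660 genes that passed the filter on low counts. The cells were wild-type fibroblasts from adult rat ventricles, kept in medium with 20% fetal bovine serum. There were 4 groups of 3 libraries of polyadenylated RNA: passage 6 cells moved for 48 h onto a flat, soft gel made from poly(ethylene glycol) norbornene, passage 6 cells on tissue culture polystyrene, passage 3 cells on the soft gel, and passage 3 cells on polystyrene. A passage is a transfer of the growing cells to a new culture surface, and polystyrene is called plastic below. The labels name the replicates biological without giving an animal or culture for each, so p-values here reflect only how far these libraries vary, which may be technical.

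Immediate early genes are transcribed within minutes of a stimulus such as serum, a growth factor or stretch, from factors already present in the cell, and their short-lived RNAs soon decay again. Fos and Jun encode the leucine zipper proteins that pair as the transcription factor AP-1. Egr1 encodes a zinc finger factor switched on through the serum response factor, which binds CArG boxes, and its ETS-family partners. In fibroblasts Egr1 is known as a mediator of the profibrotic response to TGF-beta. Myc encodes a factor that pairs with Max and drives growth and entry into the cell cycle. RNA was collected here after 48 h on the gel or, on plastic, from cultures of the same passage. A time of 48 h is listed for the plastic libraries as well. The time since the last change of medium is not given in the sources used here.

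Of the 4 genes, 1, Egr1, had an entry in the RefSeq promoter table, on build GRCr8, so only its promoter is shown. The promoters of the other genes could not be compared with it. The 250 bases before the Egr1 start lie on the plus strand at chr18:26736828-26737077, with CArG boxes in capitals.
Egr1: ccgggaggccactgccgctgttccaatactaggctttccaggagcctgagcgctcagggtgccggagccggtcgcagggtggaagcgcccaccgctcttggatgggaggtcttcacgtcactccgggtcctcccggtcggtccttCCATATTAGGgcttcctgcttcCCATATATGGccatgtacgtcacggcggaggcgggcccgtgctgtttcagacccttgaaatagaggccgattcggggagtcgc
The 2 CArG boxes run from 105 to 96 and from 83 to 74 bases before the start, 12 bases apart. A CArG box stood in 1.5% of 33469 promoter windows of this length, and 7 windows held 2 or more. The ETS core GGAA was found at 6 places on the 2 strands, 2 of them overlapping a CArG box, and it is common, with 93.2% of windows holding it. The half-site TGACG, bound by CREB, was found at 2 places, and 3.98% of windows held 2 or more. The letters TGANTCA (AP-1), GCGNGGGCG (Egr1's own site), CACGTG (Myc and Max), GGGCGG and TATAAA were in neither strand of this window, against 6.34%, 4.29%, 5.59%, 30.5% and 12.9% of all windows. A match describes these letters and does not show binding.

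The libraries held between 47834926 and 71464905 counts, and the counts of the 4 genes ran from 200 for Fos to 13176 for Egr1. Levels are given as CPM, which are counts relative to a library total scaled by the TMM method, and are compared within a gene because gene lengths differ. Within a passage, a soft gel and a plastic library with the same replicate number deviated together from their group means and are called a pair. On the second principal component of the 500 most variable genes, both libraries of pair 3 of passage 6 lay far from the rest, at -45.8 on soft gel and -50.4 on plastic, and the other 10 between -6.02 and 28.6. The differences between the substrates at passage 6 and their averages over passages are therefore also given without that pair. The table holds identifiers and no names, so the names of the 4 genes were not checked against the files, and the rest of the AP-1, EGR and Myc families, their targets and the markers that would check the fibroblast label were not analysed here.

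Egr1 rose on soft gel at passage 6, and its level there was about 3 times that on plastic. In passage 6 it stood at 102, 109 and 166 CPM on soft gel (libraries 1, 2 and 3), against 42.2, 46.3 and 28.1 CPM on plastic. The lowest soft gel library was above the highest plastic library, which was so for 11.4% of the genes tested. The group means were 126 ± 35.0 CPM on soft gel and 38.8 ± 9.56 CPM on plastic (SD, n = 3 each). The log2 fold change was 1.70 ± 0.31 (SE, edgeR quasi-likelihood test, adjusted p = 0.00775), a 3.24-fold higher level. Egr1 was the only one of the 4 genes called in this comparison, in which 9.96% of all genes were called, 4.87% as higher, and 4.58% had a larger change in size. In RNA from whole cultures, a different mix of cells and a different RNA level per cell cannot be told apart. Pair 3 carried the largest difference, and without both its libraries the log2 fold change was 1.26 ± 0.32 (edgeR adjusted p = 0.0494).

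At passage 3 Egr1 was higher on soft gel in each pair but the groups overlapped. The soft gel libraries held 112, 81.7 and 65.9 CPM in pairs 1, 2 and 3, against 73.9, 50.1 and 34.3 CPM on plastic. Plastic library 1 thus lay above soft gel library 3, and in each substrate the library of pair 1 was the highest and that of pair 3 the lowest. The means were 86.6 ± 23.6 CPM on soft gel and 52.8 ± 19.9 CPM on plastic (SD, n = 3 each). With the libraries treated as independent the log2 fold change of 0.72 ± 0.31 missed the threshold (edgeR adjusted p = 0.233), and none of the 4 genes was called by edgeR or by DESeq2. Of all genes edgeR called 2.3% and DESeq2 8.57%. At an unadjusted p under 0.05, 1 of the 4 genes, Egr1, passed in each tool, as did 19.2% of all genes in edgeR and 21.0% in DESeq2. With a term for each pair the log2 fold change was 0.75 ± 0.22 and Egr1 was called (edgeR adjusted p = 0.0405), in a fit that called 18.8% of all genes and 8.85% as higher. It was also called with the pair as a random effect in limma-voom (adjusted p = 0.0466), with 16.4% of all genes, and in a fit with pairs on the libraries of passage 3 alone (edgeR adjusted p = 8.68e-05), with 28.7%. The call with pairs in all libraries was lost when pair 1, 2 or 3 of passage 3 was left out, with log2 fold changes of 0.82, 0.79 and 0.65 and adjusted p between 0.122 and 0.202.

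**Figure D1:**
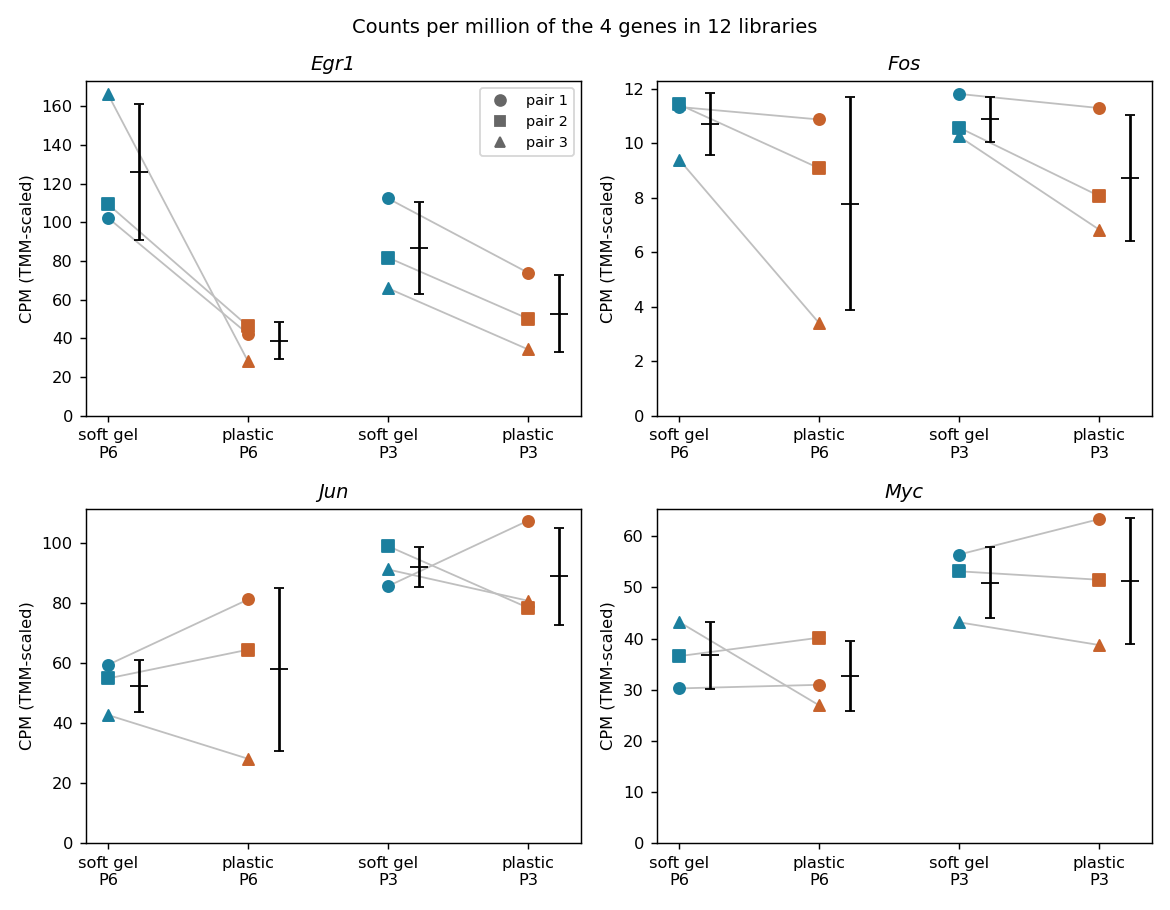
CPM (vertical axes, from 0) of the 4 genes in the 12 libraries, grouped by substrate and passage (P6, passage 6, and P3, passage 3). Symbols mark the pair number, grey lines join the 2 libraries of a pair, and black bars give the mean ± SD of 3 libraries. The 3 soft gel libraries of passage 6 lie at 102 to 166 CPM for Egr1, all above the plastic libraries of that passage, while the Jun and Myc libraries of the 2 substrates overlap.

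Averaged over both passages, Egr1 rose on soft gel by 1.21 ± 0.22 on the log2 scale, 2.31-fold (edgeR adjusted p = 0.0041), and by 1.22 ± 0.16 in the fit with pairs. Without pair 3 of passage 6 the average was 0.99 ± 0.21 (edgeR adjusted p = 0.0112). In this average it was again the 1 gene of the 4 called, where 17.7% of all genes were called and 8.45% as higher. Within pairs the soft gel level was 2.42, 2.36 and 5.92 times the plastic level at passage 6, and 1.52, 1.63 and 1.92 times at passage 3. Egr1 was thus higher on soft gel in 6 of 6 pairs, as were 14.4% of all genes tested. All 3 ratios of passage 6 were above all 3 of passage 3, as was so for 11.1% of all genes, but the test of the difference between the passages was not passed. The substrate difference was larger at passage 6 by 0.98 ± 0.43 on the log2 scale without pairs (edgeR adjusted p = 0.679) and by 0.94 ± 0.31 with pairs (edgeR adjusted p = 0.178). Without pair 3 of passage 6 the second value was 0.51 ± 0.13 (edgeR adjusted p = 0.133). Without pairs edgeR called none of the 14660 genes in this comparison (percent called 0), and DESeq2 called 103 (0.703%), none of them among the 4. At an unadjusted p under 0.05, 1044 genes (7.12%) passed in edgeR without pairs. Of the 4 genes, only Egr1 was among these (edgeR unadjusted p = 0.0445). With pairs edgeR called 2.14% of all genes and none of the 4.

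**Figure D2:**
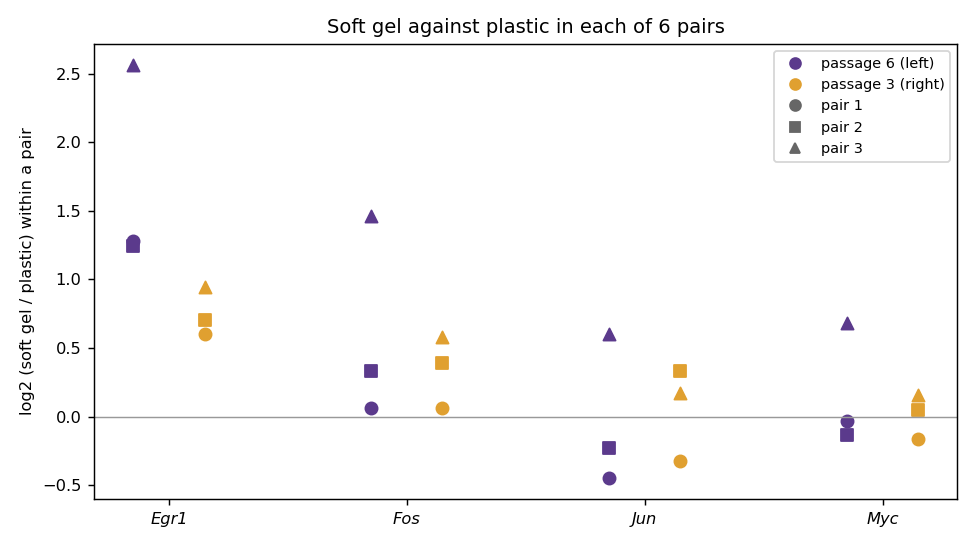
The log2 ratio of soft gel to plastic CPM (vertical axis) of each gene in the 3 pairs of passage 6 (left of each name) and the 3 pairs of passage 3 (right). All 6 points lie above 0 for Egr1 and for Fos, while Jun and Myc have 3 pairs above 0 and 3 below.

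Fos, the AP-1 subunit with the lowest counts of the 4, was also higher on soft gel in 6 of 6 pairs, but by less. At passage 6 it held 11.3, 11.4 and 9.41 CPM on soft gel (libraries 1, 2 and 3), against 10.9, 9.09 and 3.40 CPM on plastic. At passage 3 it held 11.8, 10.6 and 10.3 CPM on soft gel, against 11.3, 8.07 and 6.83 CPM on plastic. The soft gel libraries stayed close together at both passages, and the plastic libraries ranged widely, so that the groups overlapped in plastic library 1 each time. The SD among the 3 soft gel libraries was 1.14 CPM at passage 6 and 0.823 CPM at passage 3, and among the plastic libraries 3.90 CPM at passage 6 and 2.31 CPM at passage 3.

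The Fos log2 fold change on soft gel was 0.46 ± 0.34 at passage 6 (edgeR adjusted p = 0.462) and 0.32 ± 0.34 at passage 3 (edgeR adjusted p = 0.662), so neither passed. With pairs the values were 0.60 ± 0.24 at passage 6 (edgeR adjusted p = 0.101), where 24.9% of all genes were called, and 0.34 ± 0.23 at passage 3 (edgeR adjusted p = 0.349). Averaged over both passages the value was 0.39 ± 0.24 without pairs (edgeR adjusted p = 0.3) and 0.47 ± 0.17 with pairs, where it missed the threshold (edgeR adjusted p = 0.0544) in a fit that called 34% of all genes. With the pair as a random effect in limma-voom it was 0.49 ± 0.17 and passed (adjusted p = 0.0444), with 33.5% of all genes called. The ratio within pair 3 of passage 6 was 2.77, against 1.04 and 1.26 in the other pairs of that passage, and without pair 3 the Fos difference at passage 6 was 0.19 ± 0.22 (edgeR adjusted p = 0.695). It was 0.10 without plastic library 3 of passage 6 alone and 0.78 without plastic library 1 of that passage. The average over passages without pair 3 was 0.25 ± 0.14 (edgeR adjusted p = 0.264), and 0.27 ± 0.10 with pairs (edgeR adjusted p = 0.0878).

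Jun, the partner of Fos in AP-1, did not pass the test between the substrates. Its passage 6 levels were 59.5, 54.9 and 42.7 CPM on soft gel (libraries 1, 2 and 3), against 81.2, 64.5 and 28.2 CPM on plastic. At passage 3 they were 85.6, 99.0 and 91.2 CPM on soft gel, against 107, 78.4 and 80.8 CPM on plastic. The soft gel libraries lay inside the range of the plastic libraries at both passages, and 3 pairs were higher and 3 lower on soft gel. The log2 fold change on soft gel was -0.15 at passage 6, with a 95% interval from -0.80 to 0.51 (edgeR adjusted p = 0.823). At passage 3 it was 0.05, with an interval from -0.61 to 0.71 (edgeR adjusted p = 0.952). In the average over both passages the fit with pairs gave 0.01, with an interval from -0.28 to 0.31. The passage 6 value rested on single libraries: it was -0.48 without plastic library 3 and 0.18 without plastic library 1, and -0.35 ± 0.17 without both libraries of pair 3 (edgeR adjusted p = 0.267). Without pair 3 the average over passages was -0.15 ± 0.11 (edgeR adjusted p = 0.384).

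Myc, the growth factor-responsive partner of Max, likewise did not pass between the substrates. In passage 6 libraries 1, 2 and 3 it held 30.3, 36.6 and 43.3 CPM on soft gel, against 31.0, 40.2 and 27.0 CPM on plastic. At passage 3 it held 56.4, 53.1 and 43.2 CPM on soft gel, against 63.3, 51.5 and 38.7 CPM on plastic. The groups overlapped at both passages, with 3 pairs higher and 3 lower on soft gel. The log2 fold change was 0.17 at passage 6 (95% interval from -0.28 to 0.62, edgeR adjusted p = 0.683) and -0.01 at passage 3 (interval from -0.46 to 0.44, edgeR adjusted p = 0.99). In the average over both passages the fit with pairs gave 0.09, with an interval from -0.14 to 0.32. Its direction turned without both libraries of pair 3, to -0.09 ± 0.23 at passage 6 (edgeR adjusted p = 0.884) and -0.05 ± 0.15 in the average (edgeR adjusted p = 0.859), and without soft gel library 3 alone the passage 6 value was 0.03. At passage 3 the Jun and Myc values lay near 0 and took either sign as single libraries were left out, from -0.03 to 0.21 for Jun and from -0.17 to 0.17 for Myc.

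**Figure D3:**
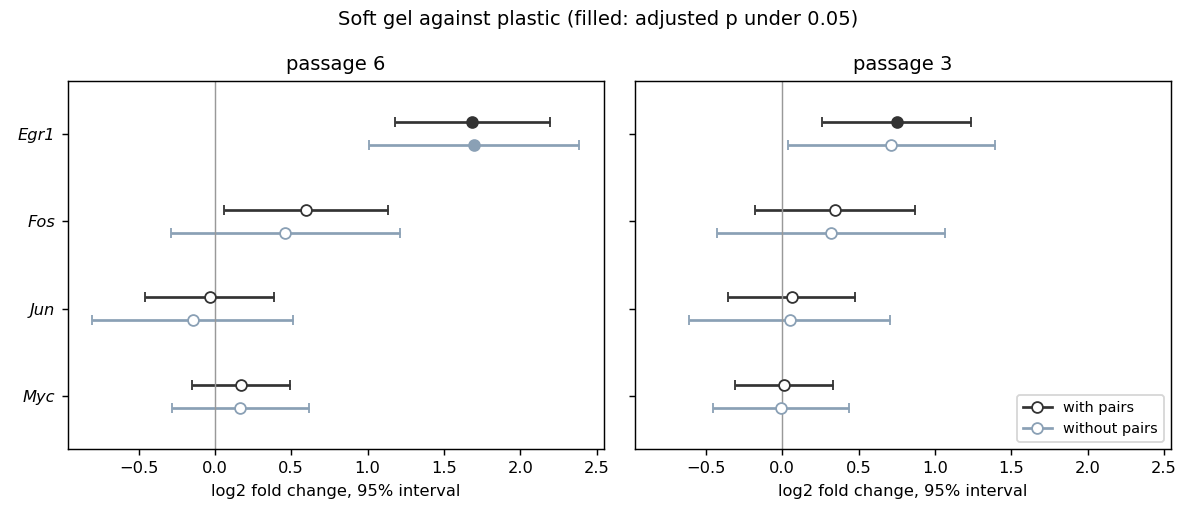
The log2 fold change of soft gel over plastic (horizontal axes) of each gene with its 95% interval, at passage 6 and passage 3, in the edgeR fits with a term for each pair (dark) and without (light). Filled points passed an adjusted p of 0.05. Egr1 at 1.69 and 1.70 is filled in both fits at passage 6 and, at 0.75, in the fit with pairs at passage 3.

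The 4 genes did not move by the same amount on soft gel. The log2 ratio of the counts of 2 genes in a library does not depend on how libraries are scaled, and its soft gel minus plastic difference was tested over the 6 pairs by an exact two-sided sign-flip test. The ratio of Egr1 to Jun was higher on soft gel by 1.21 ± 0.61 (SD, n = 6 pairs), that of Egr1 to Myc by 1.13 ± 0.48 and that of Egr1 to Fos by 0.74 ± 0.39, each in 6 of 6 pairs. Fos in turn was higher relative to Jun by 0.47 ± 0.26 and relative to Myc by 0.39 ± 0.24, again in 6 of 6 pairs. Each of these 5 had an exact sign-flip p = 0.0313, the smallest that 6 pairs allow, and 0.0375 after Benjamini-Hochberg adjustment over the 6 ratios. The ratios share the same 4 genes and are not independent, and the test was added after the data were seen. Ratios of other genes were not tested. Among the levels of single genes, 29.8% of all genes tested moved in the same direction in all 6 pairs. The ratio of Jun to Myc differed by -0.07 ± 0.23 and was higher on soft gel in 2 of 6 pairs (exact permutation p = 0.5).

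Between passages, the mean levels of Jun and Myc were lower at passage 6 than at passage 3 on both substrates, without passing the edgeR test on either. On soft gel, all 3 Jun libraries of passage 6 (42.7 to 59.5 CPM) lay below all 3 of passage 3 (85.6 to 99.0 CPM), as was so for 15.1% of all genes tested. The Jun log2 fold change of passage 6 over passage 3 was -0.81 ± 0.30 on soft gel (edgeR adjusted p = 0.105) and -0.62 ± 0.30 on plastic (edgeR adjusted p = 0.2), and neither passed. The Myc value was -0.47 ± 0.20 on soft gel (edgeR adjusted p = 0.163) and -0.65 ± 0.20 on plastic (edgeR adjusted p = 0.0596), and neither passed. None of the 4 genes was called by edgeR in either passage comparison, where 12.3% of all genes were called on soft gel and 13.4% on plastic. At an unadjusted p under 0.05, Jun and Myc passed on soft gel and Myc on plastic, as did 27.2% of all genes on soft gel and 29.3% on plastic. DESeq2 called Jun on soft gel (adjusted p = 0.0345, with 18.6% of all genes) and Myc on plastic (adjusted p = 0.0209, with 20% of all genes). The Jun call on soft gel was also made without plastic library 3 of passage 6 (edgeR adjusted p = 0.0102), which enters through the shared estimate of the spread. On plastic the Jun value was -0.29 without that library and -0.94 without plastic library 1 of passage 6.

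Averaged over both substrates, the log2 fold change of passage 6 over passage 3 was -0.71 ± 0.21 for Jun (edgeR adjusted p = 0.0283) and -0.56 ± 0.14 for Myc (edgeR adjusted p = 0.0154), so both fell in a comparison that called 28.1% of all genes and 12.7% as lower. This fit counts the 2 libraries of a pair as independent, so its p-values may be too small. With the pair as a random effect in limma-voom the values were -0.78 ± 0.26 for Jun (adjusted p = 0.0615) and -0.56 ± 0.18 for Myc (adjusted p = 0.0522), and neither gene passed, with 16.8% of all genes called. The Jun call was also lost without plastic library 1 of passage 3 (adjusted p = 0.0684), without library 2 (0.0521) or 3 (0.0539) on soft gel at that passage, and without soft gel library 3 at passage 6 (0.0567). Replicate numbers did not pair the passages, so the passage and whatever else set its cultures apart cannot be told apart.

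**Figure D4:**
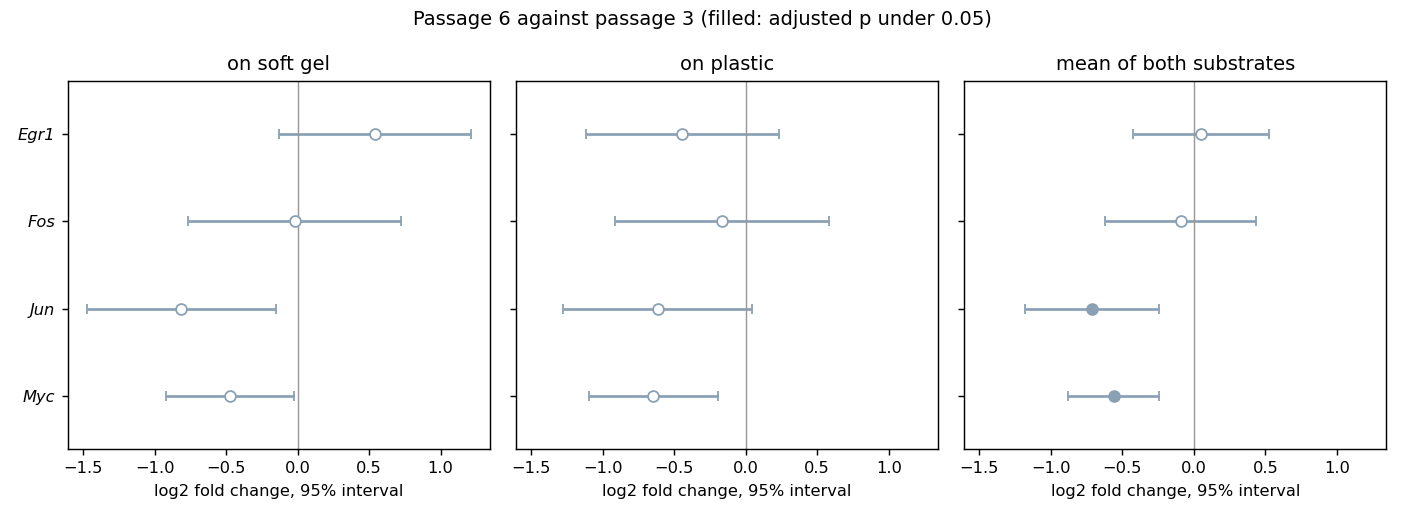
The log2 fold change of passage 6 over passage 3 (horizontal axes) of each gene with its 95% interval in the edgeR fit without pairs, on soft gel, on plastic and as the mean of both substrates. Filled points passed an adjusted p of 0.05. Jun at -0.71 and Myc at -0.56 are filled in the mean of both substrates, and no gene is filled on either substrate alone.

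The Egr1 passage difference was 0.54 ± 0.31 on soft gel (edgeR adjusted p = 0.289) and -0.44 ± 0.31 on plastic (edgeR adjusted p = 0.377), and neither passed. The soft gel value was 0.29 without soft gel library 3 of passage 6, and the plastic value was -0.26 when plastic library 3 of passage 6 was left out and -0.12 when plastic library 1 of passage 3 was. The Fos passage difference was -0.02 ± 0.34 on soft gel (edgeR adjusted p = 0.977) and -0.17 ± 0.34 on plastic (edgeR adjusted p = 0.793). Fos on plastic turned to 0.19 without plastic library 3 of passage 6 and to 0.06 without plastic library 1 of passage 3. Fos averaged 10.7 CPM at passage 6 and 10.9 CPM at passage 3 on soft gel, a gap smaller than the SD of either group.

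Ranked by group mean, Egr1 stood highest on soft gel at passage 6 (126 CPM), then on soft gel at passage 3 (86.6 CPM), on plastic at passage 3 (52.8 CPM) and on plastic at passage 6 (38.8 CPM). Fos ran from soft gel at passage 3 (10.9 CPM) and at passage 6 (10.7 CPM) to plastic at passage 3 (8.73 CPM) and at passage 6 (7.79 CPM), so its order followed the substrate first. Jun was highest on soft gel at passage 3 (91.9 CPM) and on plastic at passage 3 (88.9 CPM), then came plastic at passage 6 (58.0 CPM) and soft gel at passage 6 (52.4 CPM), an order set by passage first. Myc also ran by passage, with 51.2 CPM on plastic and 50.9 CPM on soft gel at passage 3, and 36.7 CPM on soft gel and 32.7 CPM on plastic at passage 6. For each of the 4 genes, the ranges of any 2 groups next to each other in its order overlapped.

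Plastic library 3 of passage 6 held the lowest value of all 12 libraries for each of the 4 genes, at 28.1 CPM for Egr1, 3.40 CPM for Fos, 28.2 CPM for Jun and 27.0 CPM for Myc. It was the lowest library for 8.9% of all genes tested. Its soft gel partner held the highest Egr1 value of the 12, at 166 CPM, the lowest Fos and Jun values of the soft gel libraries, and an intermediate Myc value. In passage 6 the difference between soft gel and plastic was largest in this pair for all 4 genes.

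The spread among replicates was uneven between the genes and groups. On plastic the SD of log2 CPM among 3 libraries was 0.90 for Fos and 0.80 for Jun at passage 6, above that of 86.8% and 84.6% of all genes. On soft gel at passage 6 it was 0.16 for Fos and 0.25 for Jun, above that of 36.3% and 54.5%. For Egr1 on plastic at passage 3 the SD was 0.55, above that of 87.9% of genes, while its 3 within-pair differences at that passage had an SD of 0.17, above that of 49.1%. At passage 6 the within-pair differences of Egr1 had an SD of 0.75, above that of 84.8% of genes. These are descriptions of 3 libraries or 3 pairs each.

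Likeness was measured as the root mean square difference between 2 genes' log2 CPM profiles over the 12 libraries, each centred on its mean. A smaller value means closer profiles. The profiles were not scaled, so the value depends on the size of the changes as well as on their pattern. Among 10013 other genes averaging at least 5 CPM, the genes closest to Egr1 were ENSRNOG00000007607 at 0.282 and ENSRNOG00000005615 at 0.33, where the median gene lay at 0.779. The closest gene lay at 0.278 from Fos, 0.216 from Jun and 0.174 from Myc. Jun lay at 0.416 from Fos, and 2.39% of genes were closer to Fos than Jun was. Myc lay at 0.388 from Jun, and 2.55% of genes were closer to Jun than Myc was. Egr1 lay at 0.876 from Jun, and 90.9% of genes were closer to Jun than Egr1 was. Egr1 lay at 0.544 from Fos, and 49.4% of genes were closer to Fos than Egr1 was. From Myc Egr1 lay at 0.694, farther than from Fos, and 18.5% of genes were closer to Egr1 than Myc was. This share counts genes by their closeness to Egr1. The 90.9% and 49.4% count them by closeness to Jun and to Fos, so the shares cannot be compared. The profiles share libraries and their scaling, so these values describe the 12 libraries only.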

How the data were processed

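The authors deposited a table of raw, unscaled counts with Ensembl gene identifiers as rows. Per the submitters' processing notes, the build was Rnor_6.0 and the tools included HISAT2 2.1.0 and Cufflinks with Cuffnorm 2.2.1. Counting tool, strand setting and annotation release were not given in the sources used here, so reads of overlapping or antisense genes could not be told apart. Counts were tested with edgeR 4.0.16 in R 4.3.3 (TMM scaling, filterByExpr with a minimum count of 10, quasi-likelihood F test, 4 groups in 1 model, no block). Benjamini-Hochberg adjustment covered all 14660 genes, with a threshold of 0.05, and SE and 95% intervals were derived from the F statistic. DESeq2 1.42.0 and limma 3.58.1 served as alternatives. The edgeR fits with and without pairs were run on simulated data. Limits on recovery and bias were set there only for 2-fold substrate differences averaged over passages, in the fit with pairs. CPM uses TMM-scaled totals, and log2 CPM a prior count of 2. PCR copies were not marked, so counts are not independent molecules.

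Replicates differed beyond sampling noise (chi-square per degree of freedom 30.9 to 346), and none was treated as a duplicate. Deviations of same-numbered soft gel and plastic libraries correlated across genes at 0.505 to 0.717 in passage 6 and 0.230 to 0.434 in passage 3. The numbers were therefore taken to pair the substrates, from the data and not the labels. Between passages 1 correlation was 0.0389 and the other 5 were below 0. The members, gene lists and tests were chosen with earlier results of these data known. The rule named the 4 genes in every comparison and the 2 genes most like each. It also named genes of related lists, and those lists were not followed because neither the table nor the RefSeq table pairs the identifiers with symbols. The comparison averaged over substrates and the ratio tests were added after the data were seen. Of the 4 genes, 1 matched a RefSeq promoter, by symbol.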

Additional observations from a re-analysis of the deposited data

How the results depend on the processing

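Over 27 alternatives, Egr1 was called as higher on soft gel at passage 6 each time, with a log2 fold change between 1.26 and 1.92 and an adjusted p up to 0.0494, and so was its average over passages in all 25 that could be run. At passage 6 the alternatives called between 189 of 14021 and 3650 of 14660 genes. At passage 3 the count of the 4 genes called was 0 without pairs and 1 (Egr1) with the replicate block in edgeR, with limma-voom and the block as a random effect, and with the block on that passage alone, a fit added after the data were seen. It was 0 to 1 when single pairs were left out under the block. At passage 6 that range was 1 to 2, the added gene being Fos without pair 1, in a fit that called 2931 of 14875 genes. For passage 6 over passage 3 on plastic the count of 0 became 1 (Myc) with upper-quartile scaling and in DESeq2. Of 14660 genes, the first called 2041 and the second 2933. The count was 0 to 1 when single libraries were left out. On soft gel it became 1 (Jun) in DESeq2, with only the groups compared and without pair 3 of passage 6. In that order, these fits called 2725 of 14660, 1045 of 14083 and 2058 of 14905 genes. The count was again 0 to 1 when single libraries were left out. For the substrate average it became 2 (with Fos) in limma-voom, and 1 to 2 when pairs were left out. For the passage average the count of 2 became 0 in limma-voom with pairs, and 1 to 2 when libraries were left out. A block on the replicate number, which does not pair the passages, called none of the 4 genes between passages. It called 259 of 14048 genes on plastic and 243 of 14083 on soft gel. The causes were not tested. With 1 pair left out, the ratio test could not go below an exact p of 0.0625, and the Egr1 to Jun difference ran from 1.05 to 1.37. The interaction called none of the 4 genes under any alternative.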
